A study of Mus musculus and Homo sapiens
Mus musculus with 14 samples.

Results

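Potassium channel genes were followed through the layers of the mouse retina and through its amacrine cells. The family was taken as all gene symbols made of Kcn, lower-case letters and a number, which leaves out symbols ending in os and symbols with a hyphen. The table of the retinal layers lists 87 such genes among 24460, and the table of the amacrine cells lists 76 of these among 18415. The 11 members absent from the amacrine table had at most 4 UMIs each over the 12 layer libraries.

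RNA was copied into cDNA inside fixed retinal sections, and cDNA of chosen regions was barcoded with light. Unique molecular identifiers (UMIs) were counted per gene, so that 1 UMI stands for 1 captured cDNA molecule. Random primers bound within the RNAs, so 1 RNA could give more than 1 cDNA. The outer nuclear layer (ONL), the bipolar cell layer (BCL) and the ganglion cell layer (GCL) were each barcoded in 4 sections. In 5 sections, amacrine cells that stained for tyrosine hydroxylase (TH+), the dopaminergic ones, were barcoded apart from their TH- neighbours. The study asks which genes differ between neighbouring cell populations of 1 intact tissue. The labels give the genotype of these mice as WT, and the study's methods describe CD1 IGS animals at postnatal day 18. The 4 layer sections were cut from 1 animal and are technical replicates, so the spread between them holds no spread between animals and p-values from them are too small for a statement about mice. The 5 amacrine sections are called technical replicates as well, and the study mentions a single source animal, so the same limit is taken to hold for TH+ against TH- cells. A TH+ library pools a handful of cells picked by antibody stain.

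Libraries held 310228 to 801105 UMIs (ONL), 193869 to 208437 (BCL), 585655 to 785013 (GCL), 30317 to 87449 in TH+ cells and 134394 to 200344 in TH- cells. Levels are given as CPM, the UMIs of a gene scaled to equal column totals, with section 1 first wherever a list of values follows. A count of 0 allows up to 3 UMIs, which is 3.74 to 9.67 CPM in the ONL libraries, 14.4 to 15.5 in the BCL, 3.82 to 5.12 in the GCL, 34.3 to 99.0 in TH+ cells and 14.97 to 22.3 in TH- cells. Layers and amacrine cells were sequenced on different machines, so their levels are shown side by side and were tested apart.

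The labels were checked against marker genes. All 16 rod markers were higher in the ONL than in the remaining 2 layers, and their summed share of UMIs was 9.10 ± 0.692% (ONL; SD, n = 4), 2.20 ± 0.461% (BCL) and 0.834 ± 0.207% (GCL). All 9 cone markers were also highest in the ONL, with 0.196 ± 0.0581% against 0.0273 ± 0.00798% in the BCL and 0.0120 ± 0.00186% in the GCL. All 12 bipolar markers were higher in the BCL than in the remaining 2 layers and summed to 0.827 ± 0.0584% there. All 11 ganglion cell markers were higher in the GCL than in the remaining 2 layers and summed to 0.762 ± 0.0397%. The 5 markers of dopaminergic amacrine cells summed to 0.325 ± 0.101% (SD, n = 5) in TH+ cells and 0.0187 ± 0.00504% in TH- cells, and the 3 of them with enough UMIs to test were all higher in TH+ cells.

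Potassium channels let potassium leave or enter a cell and so set its resting voltage and end its electrical responses. Voltage-gated members open on depolarization, calcium-activated members also read calcium, inward rectifiers pass current best near the resting voltage, and K2P members form leak channels. In photoreceptors, the silent subunit Kcnv2 takes part in the channel behind the outward current of the inner segment, in Müller glia Kcnj10 carries potassium away from active neurons, and in spiking neurons Kcna, Kcnc and Kcnq channels shape firing.

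The family took up the largest share of UMIs in the ONL among the layers, and its make-up differed by layer. Kcn genes held 0.754, 0.756, 0.769 and 0.742% of all UMIs (ONL), 0.6247, 0.624, 0.634 and 0.634% (BCL) and 0.690, 0.673, 0.649 and 0.661% (GCL). Exact Clopper-Pearson 95% intervals of single libraries ran from 0.712% to 0.795% in the ONL, from 0.590% to 0.670% in the BCL and from 0.629% to 0.709% in the GCL, for counting error alone. The 4 ONL libraries were the highest of the 12, with intervals above those of the other 8, and the single-library intervals of the BCL and the GCL overlapped. That order turned when the most abundant member was left out, to means of 0.276% (ONL), 0.498% (BCL) and 0.597% (GCL). In amacrine cells the share was 0.647, 0.645, 0.560, 0.573 and 0.581% in TH+ libraries, with intervals from 0.491% to 0.722%, and 0.629, 0.674, 0.579, 0.608 and 0.623% in TH- libraries, with intervals from 0.539% to 0.714%. Those groups overlapped. In bulk libraries such as these, fewer cells of a type and less RNA per cell cannot be told apart.

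The UMIs of the family were spread over fewer members in the ONL than in the inner layers. To reach 90% of Kcn UMIs took 5 to 10 members in the ONL, 20 to 21 in the BCL and 29 to 30 in the GCL. Scaled down to the depth of the smallest layer library, 193869 UMIs, the number of members expected with at least 1 UMI was 44.4 ± 4.58 (ONL; SD, n = 4), 55.2 ± 3.04 (BCL) and 62.7 ± 1.03 (GCL). By both measures the GCL held the most varied set of members.

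**Figure D1:**
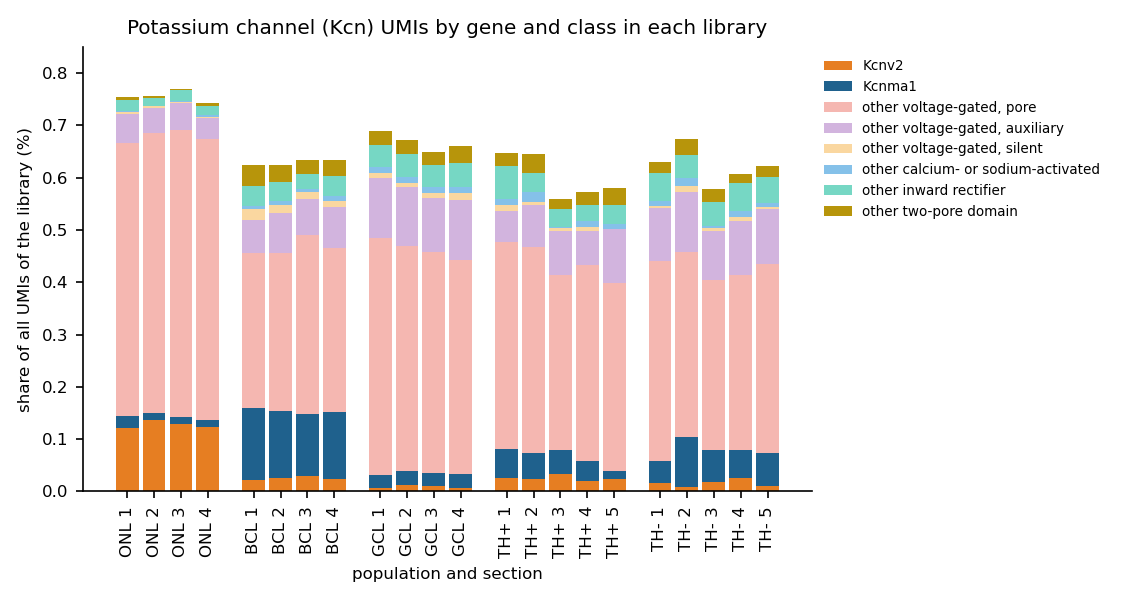
Share of all UMIs held by Kcn genes in each of the 22 libraries (bars, percent), split into Kcnv2, Kcnma1 and the other members by class. Among the layers the bars of the ONL are the highest, Kcnv2 (orange) is widest in the ONL, and Kcnma1 (dark blue) is widest in the BCL.

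By class, voltage-gated pore subunits held 71.0 ± 1.24% (SD, n = 4) of Kcn UMIs (ONL), 49.8 ± 2.90% (BCL) and 64.2 ± 1.65% (GCL). Silent voltage-gated subunits, which carry current only beside a pore partner, held 17.2 ± 0.778% (ONL) and 2.86 ± 0.326% (GCL). Auxiliary subunits held 6.39 ± 0.725% (ONL) and 16.7 ± 0.502% (GCL). Channels gated by calcium or sodium had their highest share in the BCL, at 21.7 ± 1.51%, against 2.38 ± 0.619% in the ONL and 5.46 ± 0.307% in the GCL. Inward rectifiers held 2.45 ± 0.307%, 5.59 ± 0.596% and 6.58 ± 0.409%, and leak channels 0.512 ± 0.217%, 5.19 ± 1.06% and 4.19 ± 0.476%, in the ONL, BCL and GCL. These shares are descriptions and carry no test.

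Of the 87 members, 56 had enough UMIs in the layers to be tested among 11324 genes; the 31 others had at most 34 UMIs each over the 12 libraries. The counts below describe the tested members and not the whole family. The edgeR quasi-likelihood F-test was run on all genes, with p-values adjusted by Benjamini-Hochberg and a call at an adjusted p under 0.05. Between ONL and BCL, 5 members had more in the ONL (18.5% of all genes tested) and 26 had more in the BCL (18.2% of all genes). Between ONL and GCL, 5 members had more in the ONL (29.3% of all genes) and 49 had more in the GCL (32.2% of all genes). Between BCL and GCL, 8 members had more in the BCL (16.1% of all genes) and 29 had more in the GCL (20.4% of all genes). The median log2 difference of the tested members was -1.21 for ONL minus BCL, -2.44 for ONL minus GCL and -0.96 for BCL minus GCL, beside 0.09, 0.00 and -0.02 for all genes. With column totals in place of TMM factors, a scaling added after the data had been seen, the median of all genes shifted by -0.33, -0.17 and 0.17 in the same order, and the median of the members stayed negative, at -1.53, -2.61 and -0.79.

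That choice of scaling matters for the split of all genes. Of the genes called between ONL and BCL, 50.5% were higher in the ONL with TMM, 29.5% with column totals and 40.1% with DESeq2. Of the genes called between BCL and GCL, 44.1% were higher in the BCL with TMM and 55.5% with column totals. The 3 comparisons share libraries and are not independent of each other. Of the 56 tested members, 55 were called in at least 1 layer comparison, as were 69.3% of all genes, and the exception was Kcnmb4, an auxiliary subunit of the BK channel. Members higher in 1 layer than in both others numbered 4 for the ONL (15.7% of all genes), 5 for the BCL (5.83% of all genes) and 28 for the GCL (17.5% of all genes). Most members named for a layer below were picked from these, with a shared direction in all sections, so that they pass the test follows from the choice. The low-count filter keeps a gene with enough UMIs in the libraries of 1 layer. A member can thus enter the test through the layer where it is high, as Kcnk2 did, with 0 UMIs in the BCL and 32 in the GCL. For such members, a call towards that layer was partly set by entry. The same filter applied to all genes.

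Where the sequence upstream is known, these members could be lined up by promoter. RefSeq promoters of 300 bases on build GRCm38.p6 were matched to 62 of the 87 members; Kcnv2 and Kcnj14 were among those without an entry. The matched promoters of members had a median GC content of 60.7%, against 52.7% over all 27025 promoters of the same length, and a median of 10 CpG dinucleotides against 7. By layer, the median GC content was 53.0% for 1 matched promoter of the ONL members, 65.3% for 4 of the BCL members and 58.3% for 19 of the GCL members. The letters TAATCC, or GGATTA on the other strand, the core that photoreceptor and bipolar homeodomain factors such as Crx and Otx2 are known to read, were present in 1935 of the 27025 promoters (7.16%) and in 3 of 62 promoters of members, those of Kcng4, Kcnj9 and Kcnrg. The palindrome TAATTA, a general homeodomain core, was present in 1436 promoters (5.31%) and in 0 of 62 of the members, which says only that these letters are not in these windows. A match is a description of letters and not a binding site. One promoter per layer is shown, each from a member higher there than in the remaining 2 layers, for Kcne2, Kcnma1 and Kcna2. They have 9, 36 and 31 CpG dinucleotides.
Kcne2 (chr16:92292139-92292438, plus strand): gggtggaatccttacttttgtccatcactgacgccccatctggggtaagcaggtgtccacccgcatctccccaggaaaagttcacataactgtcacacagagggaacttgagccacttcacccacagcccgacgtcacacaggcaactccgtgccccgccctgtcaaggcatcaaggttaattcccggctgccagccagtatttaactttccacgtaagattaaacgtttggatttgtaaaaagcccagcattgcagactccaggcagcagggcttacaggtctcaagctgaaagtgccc
Kcnma1 (chr14:24004156-24004455, minus strand): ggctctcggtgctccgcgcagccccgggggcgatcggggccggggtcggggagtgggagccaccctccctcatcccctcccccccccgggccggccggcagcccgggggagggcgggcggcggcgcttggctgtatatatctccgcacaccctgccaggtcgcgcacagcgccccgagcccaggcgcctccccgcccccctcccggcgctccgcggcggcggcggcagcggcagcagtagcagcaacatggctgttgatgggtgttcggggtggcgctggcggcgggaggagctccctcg
Kcna2 (chr3:107101317-107101616, plus strand): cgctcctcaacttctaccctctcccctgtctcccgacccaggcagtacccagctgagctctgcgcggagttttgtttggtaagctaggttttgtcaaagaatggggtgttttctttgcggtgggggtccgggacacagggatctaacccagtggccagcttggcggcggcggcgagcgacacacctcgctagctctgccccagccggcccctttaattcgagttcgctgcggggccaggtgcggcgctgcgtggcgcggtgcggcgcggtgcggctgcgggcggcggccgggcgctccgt

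The ONL stood out by Kcnv2. Kcnv2 (ENSMUSG00000047298.4, chr19:27299988-27314579, plus strand of GRCm39), a silent voltage-gated subunit, had 1206, 1359.8, 1289.8 and 1241 CPM (ONL), 217, 254, 295 and 232 (BCL) and 67.5, 119.9, 108 and 70.0 (GCL). Each ONL library was above each BCL library, and each BCL library above each GCL library. Its log2 difference was 2.68 ± 0.14 (SE) for ONL minus BCL, adjusted p = 2.21e-22, and 3.97 ± 0.14 for ONL minus GCL, adjusted p = 2.41e-30, with 1.29 ± 0.18 for BCL minus GCL, adjusted p = 2.38e-08, each with the same direction in 4 of 4 sections. Scaled by transcript length, Kcnv2 reached 249 ± 13.1 CPM per kilobase (SD, n = 4) in the ONL and the beta subunit Kcnab2 47.9 ± 3.49. No other gene overlaps the exons of Kcnv2. All p-values between layers measure the spread between sections of 1 animal only.

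Rod RNA moved with Kcnv2. The 16 rod markers, with none at 0 in any population, summed to 8.08, 9.36, 9.61 and 9.37% of UMIs (ONL), 1.80, 2.20, 2.85 and 1.97% (BCL) and 0.646, 0.945, 1.07 and 0.675% (GCL). Per 100 UMIs of the rod list there were 1.40 ± 0.0821 UMIs of Kcnv2 (ONL; SD, n = 4), 1.14 ± 0.0758 (BCL) and 1.09 ± 0.121 (GCL). Relative to rod RNA, then, the layers lay closer together than in CPM. The part of rod RNA in the levels of the BCL and the GCL was not tested.

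**Figure D2:**
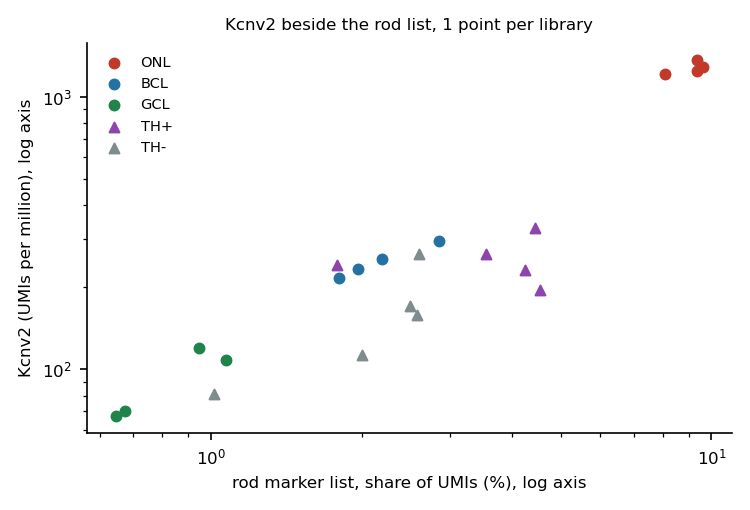
Kcnv2 in CPM against the summed share of the 16 rod markers in percent, both on log axes, 1 point for each of the 22 libraries. Points of the ONL lie at the upper right, and the level of Kcnv2 is higher where the share of rod markers is higher, from the GCL to the BCL to the ONL.

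Smaller ONL members were an inward rectifier and an auxiliary subunit. Kcnj14 (ENSMUSG00000058743.7, chr7:45465884-45474208, minus strand), a strong inward rectifier of the Kir2 group, had 94.9, 98.2, 146 and 116 CPM (ONL), 20.6, 9.60, 25.4 and 19.8 (BCL) and 8.92, 11.99, 6.15 and 8.54 (GCL). Every ONL library exceeded all 8 others, with a log2 difference 2.87 ± 0.30 (SE), adjusted p = 8.18e-12 against the BCL and 3.75 ± 0.24, adjusted p = 8.62e-20, against the GCL. Kcne2 (ENSMUSG00000039672.13, chr16:92089219-92095027, plus strand), a single-pass subunit that changes the gating of several voltage-gated channels, had 67.4, 65.0, 73.0 and 29.01 CPM (ONL), 10.3, 24.0, 25.4 and 4.94 (BCL) and 0, 7.49, 0 and 3.42 (GCL). The ONL was again above all other libraries, while BCL and GCL overlapped. Its log2 difference 2.25 ± 0.40 (SE), adjusted p = 7.33e-06, for ONL minus BCL, was followed by 4.60 ± 0.41, adjusted p = 1.51e-14, for ONL minus GCL and 2.36 ± 0.72, adjusted p = 0.00748, for BCL minus GCL. The last call was lost without section 3 (adjusted p = 0.110). With the BCL and GCL compared alone, Kcne2 had too few UMIs to test, so this comparison rested on its entry through the ONL.

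Markers of the pigment epithelium, the sheet that lies against the photoreceptors and is known to express Kcne2, moved in the same direction at a low level. The study dissected the neural retina and does not state how much of this sheet remained. Their 5 genes summed to 0.0192, 0.0156, 0.0158 and 0.0152% of UMIs (ONL), 0.00980, 0.00960, 0.00762 and 0.0104% (BCL) and 0.00331, 0.00480, 0.00154 and 0.00444% (GCL). Ttr was the most abundant, 3 of the 4 with enough UMIs to test had more in the ONL than elsewhere, and 1 of the 5 was at 0 in the BCL and 1 in the GCL. Their part in the Kcne2 difference was not tested. Kcng1, a silent subunit singled out after its values were seen, was also called higher in the ONL than in the BCL, with 33 UMIs against 1, a ratio of CPM of 11.6 with a 95% counting interval of 1.95 to 473; 29 UMIs were counted in the GCL.

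The BCL was marked by Kcnma1, the pore of the calcium-activated BK channel. Kcnma1 (ENSMUSG00000063142.16, chr14:23339499-24064559, minus strand) had 1388, 1276, 1194 and 1295 CPM in the BCL sections, 227, 148, 128 and 132 in the ONL and 243, 264, 243 and 268 in the GCL. Every BCL library was far above the 8 others. Its log2 difference was -2.63 ± 0.13 (SE) for ONL minus BCL, adjusted p = 7.26e-23, and 2.17 ± 0.12 for BCL minus GCL, adjusted p = 6.11e-21. This gene alone held 20.5 ± 1.38% (SD, n = 4) of Kcn UMIs in the BCL, 2.10 ± 0.618% in the ONL and 3.81 ± 0.229% in the GCL. The BK beta subunits were scarce in every layer: the 4 genes together held 0.298 ± 0.0457% of Kcn UMIs in the BCL, and Kcnmb4, the highest of them per kilobase, had 5, 8 and 15 UMIs in the ONL, BCL and GCL.

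The other BCL members came from 4 subfamilies. Kcnk3 (ENSMUSG00000049265.9, chr5:30745243-30783689, plus strand), an acid-sensitive leak channel, had 351, 264, 198 and 247 CPM in the BCL, 27.5, 13.8, 6.85 and 22.6 in the ONL and 57.3, 52.5, 40.0 and 44.4 in the GCL. Kcnh6 (ENSMUSG00000001901.16, chr11:105898950-105926438, plus strand), a channel of the ERG group, had 237, 158, 152 and 227 CPM in the BCL, 39.9, 38.7, 29.7 and 35.5 in the ONL and 11.5, 19.5, 9.22 and 11.95 in the GCL. Kcna5 (ENSMUSG00000045534.5, chr6:126509514-126512375, minus strand), a delayed rectifier of the Kv1 subfamily, had 159.9, 187, 203 and 168 CPM in the BCL, 19.97, 5.53, 0 and 19.3 in the ONL and 33.1, 37.5, 44.6 and 35.9 in the GCL. In all 3 genes the BCL libraries lay above the 8 others, and Kcnh6 was the single one of them with more in the ONL than in the GCL. Kcng4 (ENSMUSG00000045246.12, chr8:120349688-120362762, minus strand), another silent subunit, had 196, 139, 117 and 93.9 CPM in the BCL, 11.2, 9.68, 6.85 and 6.45 in the ONL and 22.9, 14.99, 24.6 and 44.4 in the GCL. Among the 4 BCL members with a matched promoter, that of Kcng4 is the one with TAATCC.

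The 4 genes were picked for calls against both other layers and a shared direction in all sections, so their tests passed by choice. For Kcnk3 the log2 difference was -3.49 ± 0.23 (SE) for ONL minus BCL, adjusted p = 2.31e-18, and 2.26 ± 0.19 for BCL minus GCL, adjusted p = 7.47e-15. For Kcnh6 it was -2.05 ± 0.21, adjusted p = 4.62e-12, and 3.70 ± 0.24, adjusted p = 1.17e-18. For Kcna5 it was -3.61 ± 0.29, adjusted p = 2.35e-15, and 2.08 ± 0.23, adjusted p = 4.20e-11. For Kcng4 it was -3.51 ± 0.32, adjusted p = 1.41e-13, and 2.20 ± 0.25, adjusted p = 2.64e-10.

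Several cell types are packed in the BCL, and their markers moved with these genes. The 12 bipolar markers, with none at 0, summed to 0.871, 0.880, 0.759 and 0.798% of UMIs in the BCL sections, 0.0916, 0.0631, 0.0689 and 0.0899% in the ONL and 0.0459, 0.0590, 0.0501 and 0.0405% in the GCL. The 10 markers of Müller glia, led by Glul with none at 0, summed to 0.858, 0.886, 0.823 and 0.919% in the BCL, 0.166, 0.121, 0.115 and 0.161% in the ONL and 0.191, 0.219, 0.214 and 0.180% in the GCL, and 9 of them were higher in the BCL than in the remaining 2 layers. So were 4 of 5 horizontal cell markers, at 0.0780 ± 0.0184% (SD, n = 4) in the BCL, led by Septin4, and 2 of 4 tested endothelial markers, at 0.0977 ± 0.00284%, led by Kdr. Which of these cells hold the RNA of Kcnma1, Kcnk3, Kcnh6, Kcna5 and Kcng4 was not tested.

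Kcnj10, the inward rectifier of Müller glia, had the direction of the glial markers between ONL and BCL but did not follow them between BCL and GCL. It (ENSMUSG00000044708.6, chr1:172168765-172201652, plus strand) had 263, 163, 132 and 237 CPM in the BCL, 172, 171, 166 and 199.8 in the GCL and 67.4, 26.3, 27.4 and 22.6 in the ONL. BCL and GCL libraries overlapped and ONL libraries were below all of them. ONL minus BCL gave a log2 difference -1.97 ± 0.24 (SE), adjusted p = 6.56e-10, whereas BCL minus GCL gave -0.00 ± 0.19, adjusted p = 1.0. The glial list had a median log2 difference of -2.68 for ONL minus BCL and, by contrast with Kcnj10, of 1.83 for BCL minus GCL. Astrocytes, which lie in the GCL and are known to express Kcnj10 elsewhere, are marked by 3 genes, all higher in the GCL than in the remaining 2 layers, that summed to 0.0208, 0.0279, 0.0292 and 0.0261% in the GCL against 0.00155, 0.00480, 0.00305 and 0.00297% in the BCL, with Gfap the most abundant and none at 0. Their part in the Kcnj10 level of the GCL was not tested.

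The GCL held the widest set, with channels of spiking neurons in front. Kcna2 (ENSMUSG00000040724.6, chr3:107008237-107022321, plus strand), a Kv1 channel known from axons, had 648, 589, 510.3 and 587 CPM in the GCL, 119, 134, 132 and 89.0 in the BCL and 94.9, 42.9, 59.4 and 77.4 in the ONL. Kcnc1 (ENSMUSG00000058975.8, chr7:46045674-46106392, plus strand), a Kv3 channel that lets neurons fire fast, had 538, 538, 513 and 504 CPM in the GCL, 139, 134, 163 and 183 in the BCL and 89.9, 42.9, 52.5 and 51.6 in the ONL. In both genes, every GCL library was above the 8 others. The log2 difference of BCL minus GCL was -2.47 ± 0.17 (SE), adjusted p = 2.58e-18, for Kcna2 and -1.92 ± 0.15, adjusted p = 1.51e-15, for Kcnc1. That of ONL minus GCL was -2.91 ± 0.15, adjusted p = 3.84e-24, for Kcna2 and -2.91 ± 0.15, adjusted p = 3.24e-24, for Kcnc1. All 4 had their direction in 4 of 4 sections.

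Partners and relatives of these channels were highest in the GCL too. Kcnq3, a slowly gating voltage-gated channel, had 169, 172, 174 and 166 CPM in the GCL sections, 14.8 to 36.1 in the BCL and 13.8 to 30.0 in the ONL. Kcnc2, a second Kv3 channel, had 249.7, 208, 215 and 219 CPM in the GCL, 9.60 to 56.7 in the BCL and 6.45 to 43.7 in the ONL. Kcna1, a Kv1 partner of Kcna2, had 108, 108, 93.8 and 109 CPM in the GCL, 14.4 to 15.5 in the BCL and 4.15 to 16.2 in the ONL. For these 3 genes every GCL library was above the 8 others. Kcnd2, the A-type pore of the Kv4 subfamily, had 146, 154, 137 and 109 CPM in the GCL, 10.3 to 29.7 in the BCL and 4.57 to 22.6 in the ONL. Kcnip1, a calcium sensor that assembles with Kv4 pores, had 122, 108, 141 and 104 CPM in the GCL, 9.60 to 20.6 in the BCL and 9.13 to 16.2 in the ONL. Kcnk9, an acid-sensitive leak channel like Kcnk3, had 144, 144, 141 and 195 CPM in the GCL, 4.94 to 25.4 in the BCL and 6.85 to 16.1 in the ONL. For BCL minus GCL the log2 difference of the 6 genes lay between -3.29 ± 0.29 (SE, Kcnk9, adjusted p = 4.57e-14) and -2.95 ± 0.32 (Kcna1, adjusted p = 3.90e-11), and for ONL minus GCL between -3.56 ± 0.25 (Kcnd2, adjusted p = 1.22e-18) and -2.86 ± 0.19 (Kcnq3, adjusted p = 3.18e-19).

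Within some subfamilies, members parted by layer. Of the leak channels, Kcnk3 was highest in the BCL and Kcnk9 in the GCL, while Kcnk1 had 25.4 to 41.3 CPM in the BCL, 15.4 to 35.9 in the GCL and 0 to 3.74 in the ONL. Of the Kv1 channels, Kcna5 was highest in the BCL and Kcna1 and Kcna2 in the GCL. Of the ether-a-go-go channels, Kcnh6 was highest in the BCL, and Kcnh5 (224, 178, 184 and 219 CPM in the GCL, 56.7, 81.6, 107 and 124 in the BCL, 33.7, 19.4, 9.13 and 29.01 in the ONL) and Kcnh7 (164, 111, 139.9 and 160.5 in the GCL, 14.4 to 55.9 in the BCL, 6.92 to 32.2 in the ONL) in the GCL. BCL and GCL thus differed in the leading member of each of these 3 subfamilies. For BCL minus GCL the log2 difference was -1.29 ± 0.19 (SE), adjusted p = 2.00e-07, for Kcnh5 and -2.01 ± 0.27, adjusted p = 1.03e-08, for Kcnh7. Exons of Kcnh7 are overlapped over 20.6% of their bases by genes on the other strand, which had 127 UMIs in the layers beside 461 of Kcnh7.

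**Figure D3:**
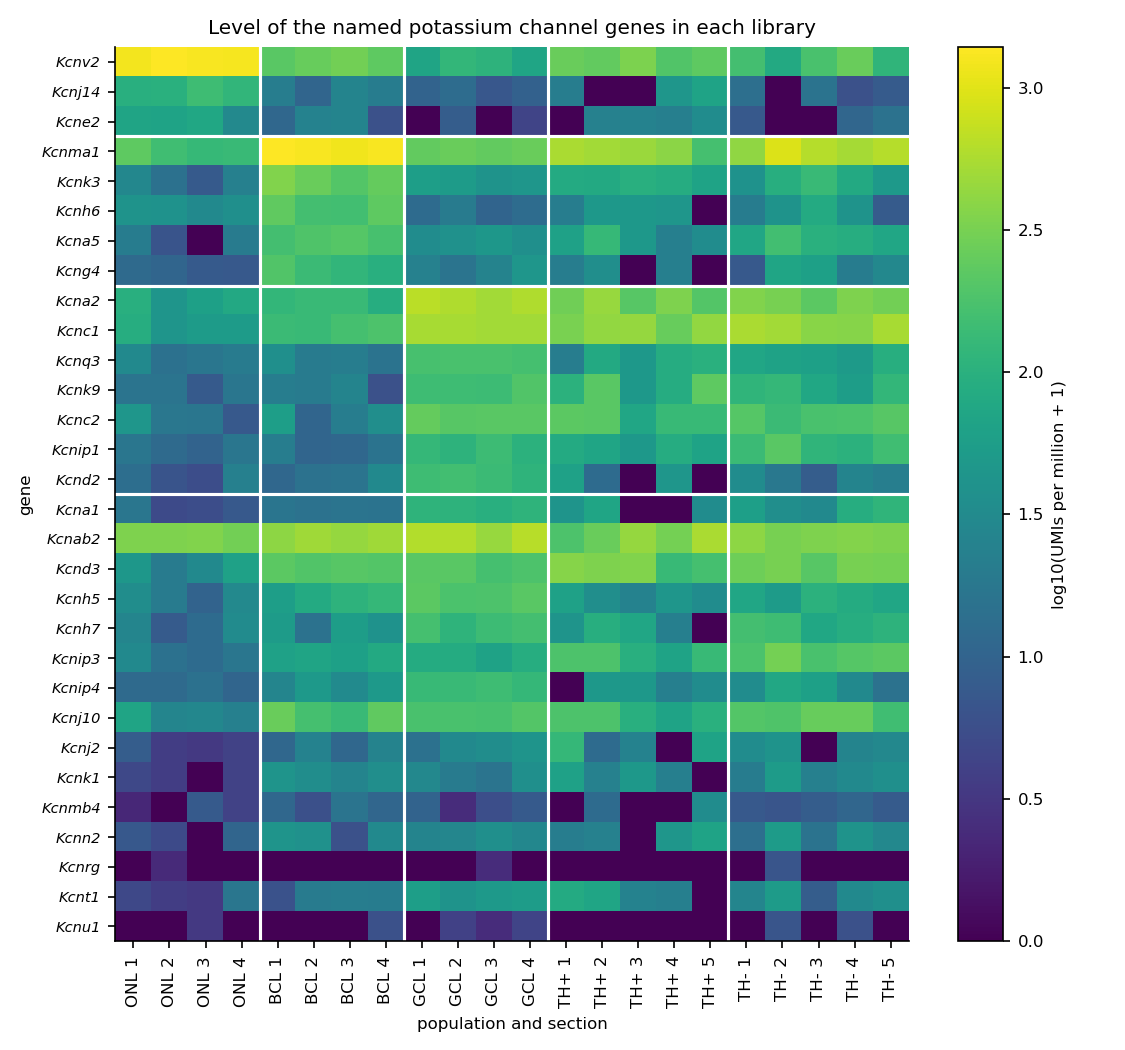
Level of the 30 named Kcn genes in each of the 22 libraries, as log10 of CPM plus 1 (colour). White lines part the libraries by population and the genes into the ONL, BCL and GCL members and the remaining named genes. Among the layers, each of the first 3 blocks is brightest in its own, as the choice of genes requires. Kcnc1, Kcnip1 and Kcnk9 reach higher levels in at least 1 amacrine library.

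Of 8 tested auxiliary subunits of voltage-gated channels, 7 were called higher in the GCL than in the ONL (32.2% of all genes), and Kcne2 was higher in the ONL. Between ONL and BCL, 3 were higher in the BCL (18.2% of all genes), 1 in the ONL (18.5% of all genes) and 4 were not called; with column totals in place of TMM factors, 5 were higher in the BCL and 1 in the ONL, beside 25.4% and 10.6% of all genes. Kcnab2, the beta subunit of Kv1 channels, had 345, 338, 356 and 299.8 CPM (ONL), 407, 494, 447 and 499 (BCL) and 608, 601, 450.3 and 628 (GCL), the highest level per kilobase of any member in the GCL at 82.0 ± 11.7 (SD, n = 4). Section 3 of the GCL lay among the BCL libraries, and the log2 difference was -0.60 ± 0.11 (SE), adjusted p = 8.49e-06, for ONL minus GCL, -0.13 ± 0.13, adjusted p = 0.4998, for ONL minus BCL (called with column totals, at -0.46 ± 0.13, adjusted p = 0.00323; p from 0.108 to 0.991 under the other alternatives) and -0.47 ± 0.12, adjusted p = 0.00173, for BCL minus GCL. Exons of Kcnab2 are overlapped over 7.45% of their bases by genes on the other strand, which had 1058 UMIs in the layers beside 2679 of Kcnab2. Kcnip4, a sensor of the Kv4 group, had 131, 133, 144 and 121 CPM in the GCL, 25.8, 48.0, 30.5 and 49.4 in the BCL and 11.2, 11.1, 13.7 and 9.67 in the ONL, with no overlap. Its log2 difference was -1.94 ± 0.23 (SE), adjusted p = 4.17e-10, for BCL minus GCL. Kcnip3, which is also known as a transcriptional repressor, had 11.4 to 30.0 CPM (ONL), 61.0 to 79.1 (BCL) and 63.0 to 88.8 (GCL). The inner layers overlapped, at -0.41 ± 0.23 (SE), adjusted p = 0.168, while ONL minus GCL was -1.87 ± 0.23, adjusted p = 6.28e-10.

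A further group was lower in the ONL than in the inner layers and not called between those 2. Kcnd3, a second A-type pore, had 44.9, 19.4, 29.7 and 61.2 CPM (ONL), 222, 192, 208 and 198 (BCL) and 214, 219, 161 and 183 (GCL). Its BCL and GCL libraries overlapped, and BCL minus GCL gave a log2 difference of -0.10 ± 0.16 (SE), adjusted p = 0.686. ONL minus BCL gave -2.15 ± 0.22, adjusted p = 2.53e-12. Kcnn2, a calcium-activated channel of small conductance, had 6.24, 4.15, 0 and 9.67 CPM (ONL), 41.3, 38.4, 5.08 and 29.7 (BCL) and 25.5, 27.0, 35.4 and 27.3 (GCL). Section 3 of the BCL was as low as the ONL, and ONL minus BCL was -2.17 ± 0.54 (SE), adjusted p = 8.11e-04. The inward rectifier Kcnj2, a relative of Kcnj14, had 10, 14 and 77 UMIs in the ONL, BCL and GCL, with -2.48 ± 0.43, adjusted p = 1.62e-06, for ONL minus GCL and -0.88 ± 0.43, adjusted p = 0.105, for BCL minus GCL, where a missed call does not show equal levels. Its call between ONL and BCL (-1.60 ± 0.62, adjusted p = 0.0376) was lost without section 2, 3 or 4 (adjusted p = 0.246, 0.0604 and 0.189), with sections as a replicate block (0.0504) and without the low-count filter (0.0557). With the ONL and BCL compared alone, Kcnn2 and Kcnj2 had too few UMIs to test.

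Other members had few UMIs in at least 1 layer. Kcnt1, a sodium-activated channel, had 57.3, 40.5, 49.2 and 52.9 CPM in the GCL, 5.16, 19.2, 20.3 and 19.8 in the BCL and 3.74, 2.77, 2.28 and 16.1 in the ONL, with -1.78 ± 0.38 (SE), adjusted p = 1.11e-04, for BCL minus GCL. Kcnmb4 was not called, with log2 differences of -1.73 ± 0.84, -1.08 ± 0.72 and 0.65 ± 0.69 (SE) in the comparisons ONL minus BCL, ONL minus GCL and BCL minus GCL and adjusted p = 0.103, 0.194 and 0.506. The sperm channel Kcnu1 had 7 UMIs over the 12 layer libraries and the regulator Kcnrg 2, too few to test. Kcnk2, a stretch-sensitive leak channel, and Kcnj5, an inward rectifier gated by G proteins, were singled out after their values were seen, for their low counts in the BCL. Kcnk2 had 0 UMIs in the 4 BCL libraries and 32 in the GCL, at least 3.18-fold higher in the GCL against a floor of 3 UMIs over the group. Kcnj5 had 2 UMIs in the BCL and 178 in the GCL, a ratio of CPM of 26.5 with a 95% counting interval of 7.24 to 221.

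**Figure D4:**
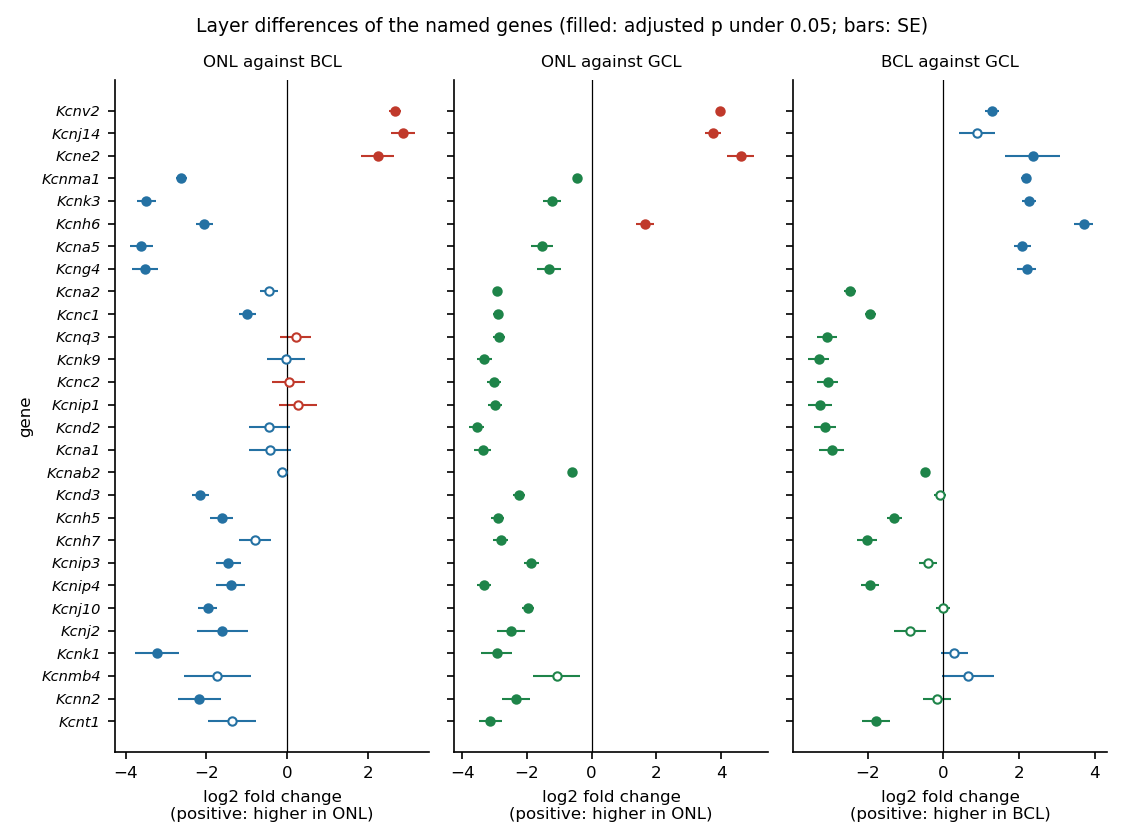
Log2 difference between layers (x axis; edgeR, TMM) of the named genes with enough UMIs to test, with bars of 1 SE and filled points at an adjusted p under 0.05. Colours give the layer with the higher level (red ONL, blue BCL, green GCL); Kcnv2, Kcnj14 and Kcne2 lie right of 0 in both comparisons of the ONL, and most others left of it.

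Markers of the GCL and its neighbours moved with the GCL members. The 11 ganglion cell markers, led by Nefh with none at 0, summed to 0.741, 0.731, 0.757 and 0.820% of UMIs in the GCL sections, 0.0614, 0.0557, 0.0513 and 0.0771% in the BCL and 0.0798, 0.0394, 0.0466 and 0.0780% in the ONL. Of 10 amacrine markers, 8 were higher in the GCL than in the remaining 2 layers, and the list, with none at 0, summed to 0.239, 0.267, 0.261 and 0.254%, 0.109, 0.113, 0.0981 and 0.132% and 0.0709, 0.0408, 0.0402 and 0.0612%. The GCL also had the highest mean sum of the microglia list, 0.0104 ± 0.00293% (SD, n = 4), with 3 of 5 tested genes higher than in the remaining 2 layers. Its mean was the highest for the erythrocyte list too, 0.00425 ± 0.00447%, with its 1 tested gene higher than in both. These erythrocyte sums ran from 0.000255% in section 1, the lowest of the 12 layer libraries, to 0.0104% in section 4. DESeq2 called 0 of 4 erythrocyte genes between layers. The part of each cell type in the 28 members of the GCL was not tested. Mitochondrially encoded genes held 4.76 ± 0.527% of UMIs (ONL), 6.30 ± 0.445% (BCL) and 9.04 ± 0.326% (GCL), and their part was not tested either.

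Genes of proteins that assemble with or anchor these channels were mostly highest in the GCL as well. Of 30 such genes outside the Kcn symbols, 27 had enough UMIs to test in the layers, and the list summed to 0.502 ± 0.0455% of UMIs (ONL; SD, n = 4), 0.774 ± 0.0296% (BCL) and 1.28 ± 0.0309% (GCL). Between ONL and BCL, 3 had more in the ONL and 14 had more in the BCL (18.5% and 18.2% of all genes), with a median log2 difference of -0.73. Between ONL and GCL, 3 had more in the ONL and 22 had more in the GCL (29.3% and 32.2% of all genes), with a median of -2.54. Between BCL and GCL, 1 had more in the BCL and 19 had more in the GCL (16.1% and 20.4% of all genes), with a median of -1.20. The 19 genes higher in the GCL than in the remaining 2 layers (17.5% of all genes) included Adam23, Calm3, Ank3 and Lgi3. Adam23, a partner of the Lgi proteins that set Kv1 channels at axons, rose from 71.4 ± 15.7 CPM (SD, n = 4) in the BCL to 395 ± 37.4 in the GCL, with BCL minus GCL at -2.64 ± 0.20 (SE), adjusted p = 2.60e-16. Ank3, which anchors Kcnq channels at the axon initial segment, gave -1.55 ± 0.12, adjusted p = 1.35e-15, and Calm3, a calmodulin that binds Kcnq and SK channels, -1.49 ± 0.12, adjusted p = 1.31e-15. The 3 genes higher in the ONL than in the remaining 2 layers (15.7% of all genes) included Dlg1 and Dlg4. The synaptic scaffold Dlg4 had 1307 ± 34.0 CPM in the ONL and 855 ± 57.99 in the BCL, with ONL minus BCL at 0.94 ± 0.11, adjusted p = 2.83e-10.

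In amacrine cells the question was whether dopaminergic cells differ from their neighbours. Of the 76 members listed, 39 had enough UMIs to be tested among 6021 genes, and the 37 others had at most 34 UMIs each over the 10 libraries. A single member was called higher in TH+ cells, beside 0.747% of all genes tested, and 0 were called higher in TH- cells, beside 0.083% of all genes. At an unadjusted p under 0.05, edgeR gave 2 members higher in TH+ cells (3.85% of all genes) and 8 higher in TH- cells (4.999% of all genes), and DESeq2, run on 18415 genes and 76 members, gave 2 (1.66% of its genes) and 5 (1.17%), of which 1 and 0 were called after adjustment. The median log2 difference of TH+ minus TH- was -0.17 over the tested members and -0.05 over all genes, and it was negative under every scaling that was run. The count was 0 without section 3, 4 or 5 or without the low-count filter. With sections as a replicate block, Kcnma1 was also called, lower in TH+ cells (log2 difference -0.57, adjusted p = 0.0237). Of the 6021 genes, that fit called 96 higher in TH+ and 52 higher in TH- cells, against 45 and 5 without the block.

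Kcnv2 had 265, 240.1, 329, 195 and 231 CPM in TH+ and 158, 81.0, 171, 265 and 113 in TH- libraries. These groups overlapped, and Kcnv2 was higher in TH+ cells in 4 of 5 sections and not called (0.64 ± 0.27, adjusted p = 0.428).

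Rod RNA differed here too. The 16 rod markers, with none at 0, summed to 3.55, 1.78, 4.44, 4.55 and 4.25% of UMIs in the TH+ libraries and 2.58, 1.02, 2.50, 2.60 and 2.01% in the TH- libraries, higher in TH+ in 5 of 5 sections. Of the 16, 5 were called higher in TH+ cells by edgeR and 2 by DESeq2, 15 had an unadjusted p under 0.05 in edgeR, and the median log2 difference of the list was 0.77, beside 0.64 ± 0.27 (SE) for Kcnv2. Per 100 UMIs of the rod list there were 0.761 ± 0.354 UMIs of Kcnv2 (SD, n = 5) in TH+ cells and 0.734 ± 0.181 in TH- cells. These ratios overlapped between the groups. The part of rod RNA in the level of Kcnv2 was not tested.

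Other members named by the smallest p-values were lower in TH+ cells and did not pass the test without a section block. Kcnip1 had 81.7, 68.6, 47.1, 86.5 and 66.0 CPM in TH+ and 138, 214, 112, 105 and 148 in TH- libraries. These groups did not overlap, yet the difference of -1.02 ± 0.36 (SE) had an adjusted p = 0.255. Kcnh7 had 40.8, 91.5, 70.6, 21.6 and 0 CPM in TH+ and 158, 145, 74.4, 89.8 and 106 in TH- libraries. The count of 0 in section 5 of TH+ allows up to 99.0 CPM at that depth, and the difference was -1.08 ± 0.42, adjusted p = 0.334, lower in TH+ in 5 of 5 sections. Kcnma1 had 551, 503, 471, 389 and 165 CPM in TH+ and 421, 955, 617.6, 524 and 627 in TH- libraries, lower in TH+ in 4 of 5 sections, with -0.53 ± 0.21, adjusted p = 0.399. With sections as a replicate block Kcnma1 was called, at -0.57, adjusted p = 0.0237. A difference that misses the threshold at this depth is not shown to be absent.

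Markers of 2 other cell types moved in the same direction as Kcnma1. The 10 markers of Müller glia summed to 0.412, 0.542, 0.510, 0.484 and 0.383% of UMIs in TH+ and 0.543, 0.729, 0.835, 0.702 and 0.617% in TH- libraries, without overlap. Of 9 tested, 5 had an unadjusted p under 0.05 and were lower in TH+ cells, as were 5 of 10 in DESeq2, and 0 were called by either tool. The 12 bipolar markers summed to 0.120, 0.167, 0.120, 0.0995 and 0.0627% and 0.122, 0.261, 0.305, 0.151 and 0.0853%, lower in TH+ cells in 5 of 5 sections, with 2 of 8 at an unadjusted p under 0.05 in edgeR, 1 of 12 in DESeq2 and 0 called by either. The 10 general amacrine markers, given below, were also lower in TH+ cells in each section, with 1 of 10 called. The part of any of these cells in the level of Kcnma1 was not tested.

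**Figure D5:**
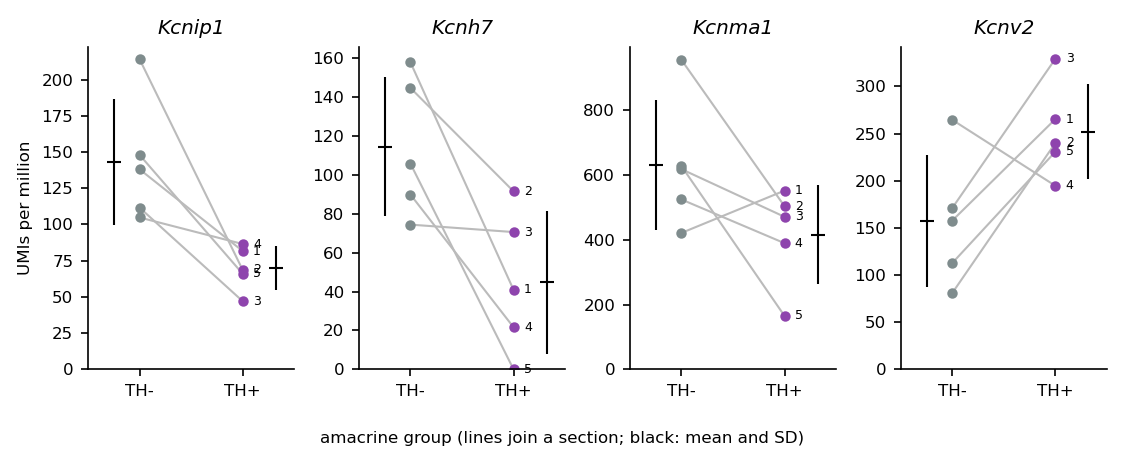
CPM of 4 Kcn genes with small p-values between TH+ (purple, numbered by section) and TH- (grey) libraries. Lines join the libraries of a section, and black bars give mean and SD (n = 5); Kcnip1 and Kcnh7 are lower in TH+ in each section, and Kcnv2 is higher in 4 of 5.

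The KChIP sensors Kcnip1, Kcnip2, Kcnip3 and Kcnip4, singled out as a group after their values were seen, held a smaller share of Kcn UMIs in TH+ cells. It was 3.36 to 5.14% in TH+ and 6.73 to 9.70% in TH- libraries, and these shares carry no test. Of the 4 genes, 0 were called by edgeR or DESeq2. In each tool 3 had an unadjusted p under 0.05, all lower in TH+ cells, beside 4.999% of all genes in edgeR and 1.17% in DESeq2. In edgeR this count was 2 without section 1, 2, 3 or 4 and 1 without section 5. Per kilobase, Kcnip3 reached 61.2 ± 15.4 CPM per kilobase (SD, n = 5) in TH- and 37.1 ± 14.9 in TH+ cells, Kcnab2 50.6 ± 5.11 and 50.4 ± 21.6, and Kcnc1 50.02 ± 9.34 and 40.1 ± 8.72. TH+ and TH- libraries overlapped in Kcnip3, Kcnab2 and Kcnc1. The 10 general amacrine markers summed to 0.4655, 0.4929, 0.367, 0.512 and 0.594% in TH+ and 0.631, 0.550, 0.531, 0.660 and 0.865% in TH- libraries, with 1 of 10 called, lower in TH+ cells. Among the channel partners, 0 of 23 tested were called in either direction by edgeR or DESeq2, and at an unadjusted p under 0.05 edgeR gave 3 higher in TH+ and 2 higher in TH- cells, and DESeq2 3 and 1. The partners summed to 0.886 ± 0.0438% (SD, n = 5) in TH+ and 0.948 ± 0.0738% in TH- cells.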

How the data were processed

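Counts of 22 libraries were used, 12 from the layers of 4 retinal sections and 10 from TH+ and TH- amacrine cells of 5 sections. The deposited values are counts, unique molecular identifiers (UMIs) per gene in each region and section. The authors extracted barcodes and UMIs with UMI-tools 1.1.1, aligned with STAR 2.7.9a to mouse GENCODE vM27 (mm39), discarded reads mapping to several places, counted exons with featureCounts at its default settings, which do not separate the strands, sorted with SAMtools 1.9, kept 1 read per UMI and gene and discarded 2 rRNA genes. An exon length per gene, an other unit in a deposited table of the mixed cell culture, was used to scale by kilobase; all else from that culture was left out.

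Kcn members were taken by symbol. Symbols outside the rule were Kcne1l, Kcnmb4os2 and Kcnq1ot1 in the layers (31, 3 and 423 UMIs), and Kcnab3os, Kcnd3os, Kcne1l and Kcnq1ot1 in the amacrine table (1, 1, 7 and 217 UMIs). Members and gene lists were chosen with earlier results of these data known. Exons of 45 members are overlapped by another gene in GENCODE vM39 on GRCm39, of which 44 by genes on the other strand alone and Kcnk4 also on its own strand. Promoters are RefSeq sequences of 300 bases on GRCm38.p6.

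Layers and amacrine cells were fitted apart in edgeR 4.0.16 (R 4.3.3): TMM, filterByExpr (min.count 3, min.total.count 10), a quasi-likelihood F-test between populations, Benjamini-Hochberg over all genes tested, and a call at an adjusted p under 0.05. The common biological coefficient of variation was 9.17% in the layers and 16.05% in the amacrine cells. Counts between replicates varied more than counting error in every pair, with a chi-square per degree of freedom of 1.15 to 2.91. Residuals of libraries of the same section correlated at 0.006 to 0.042 in the layers (0 of 12 pairs over 0.1) and 0.025 to 0.205 in the amacrine cells (1 of 5 pairs), and those of different sections at -0.055 to 0.042 and -0.102 to 0.038. The model was tested on simulated data with known changes.

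Alternatives were DESeq2 1.42.0, edgeR with DESeq2 size factors, no filter on low counts, the default filter (minimum count 10), sections as a replicate block, each section left out, the 2 layers compared alone, a 2-fold minimum, mitochondrial genes left out, and the most abundant member left out; column totals without TMM were added after the data had been seen. Named members were up to 8 per layer that were called higher there than in both other layers with the same direction in every section, ranked by the larger adjusted p; the member of each subfamily with the highest level per kilobase; the called members or the 5 smallest p between TH+ and TH-; 14 members with a textbook role in the retina; and up to 4 channel partners per layer. Some genes are not reported here; counts, sums and medians include them. Marker lists covered rod, cone, bipolar, ganglion, amacrine, dopaminergic amacrine and horizontal cells, Müller glia, pigment epithelium, endothelium, astrocytes, erythrocytes and microglia. Tables and figures used Python 3.11.15 with pandas 2.3.3, numpy 2.4.6, scipy 1.17.1 and matplotlib 3.10.9.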

Additional observations from a re-analysis of the deposited data

Results flagged for a closer look

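In 12 of 152 groups of libraries, each a member in a population, 1 section lay far from the others, and chance picks about 1 in 20 groups. In the ONL, section 1 of Kcnj10 stood high at 67.4 CPM (median 26.8), section 4 of Kcnt1 high at 16.1 (median 3.26) and section 3 of Kcnk9 low at 6.85 (median 15.1). In the BCL, section 1 of Kcnt1 stood low at 5.16 CPM (median 19.5). In the GCL, section 3 was low in Kcna1 at 93.8 CPM (median 108) and in Kcnab2 at 450.3 (median 604), and section 4 of Kcnk9 was high at 195 (median 144).

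The remaining 5 groups held UMIs in 1 library and 0 in the rest, a pattern that the rule flags by construction. They were Kcnrg at 1.38 CPM in the ONL, 1.54 in the GCL and 5.79 in TH- cells, and Kcnu1 at 2.28 CPM in the ONL and 4.94 in the BCL. These values are under the level that a count of 0 allows. Causes were not tested.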

How the results depend on the processing

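Fold changes of named members were recalculated where they had been called between layers or had been named between TH+ and TH-. Of 744 recalculations of these 68 fold changes, 737 kept their direction and their side of the threshold. A fold change was left out where its gene had too few UMIs to test under a setting. With the 2 layers compared alone, 61 were recalculated. Left out there were Kcnj2 and Kcnn2 between ONL and BCL and Kcne2 between BCL and GCL. Another 6 kept the direction and were no longer called, 1 became called and 0 reversed. The 6 were Kcnj2 between ONL and BCL (log2 difference -1.57, adjusted p = 0.0557, without the low-count filter; -1.49, 0.0504, with sections as a block; -1.21, -1.61 and -1.29 without sections 2, 3 and 4) and Kcne2 between BCL and GCL (1.69 without section 3). Kcnma1 became called between TH+ and TH- with sections as a block (-0.57). Layer differences not called at first were outside this tally. Of these, Kcna2, Kcnab2, Kcnh7 and Kcnt1 became called between ONL and BCL with column totals. Kcna2 also did so with DESeq2 size factors in edgeR and without section 1, and Kcnt1 without section 4. Both did so with the 2 layers compared alone.

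The number of members called between TH+ and TH- cells, 1 in edgeR, was 0 without the low-count filter (3 higher in TH+ and 11 higher in TH- at an unadjusted p under 0.05, as were 1.64% and 4.66% of all 18415 genes), 2 with sections as a block and 0 with a 2-fold minimum, and 0 to 1 when 1 section was left out (0 without section 3, 4 or 5). DESeq2 called 1. The counts between layers ranged from 26 to 37 for ONL and BCL, 46 to 62 for ONL and GCL and 31 to 41 for BCL and GCL over all alternatives run, each within 1.5 times the count reported; the cause was not tested.

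Without mitochondrial genes the share of Kcn UMIs was 0.793% in the ONL, 0.671% in the BCL, 0.735% in the GCL, 0.653% in TH+ and 0.669% in TH- cells. Without the most abundant member of each population it was 0.276%, 0.498%, 0.597%, 0.467% and 0.541%, by construction lower, and the ONL turned from the highest layer to the lowest. Depth limits the TH+ libraries most, with 30317 to 87449 UMIs.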
